A study of Homo sapiens with 6 samples.

Results

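SNAPC is the protein complex that recognises the promoters of small nuclear RNA (snRNA) genes. The 10 genes described here encode its 5 subunits, SNAPC1 to SNAPC5, and 5 factors that work beside it: TBP, POU2F1, BRF1, BRF2 and BDP1. They were found by symbol among the 58735 genes of the count table, and all 10 were matched. SNAPC1 was chosen by its measured fall in RNA without serum in these same libraries, so that fall is a description here and not a tested result. The other 9 genes were taken because they belong to the same machinery, whatever their values.

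The RNA came from Ovcar8, an established human line of high-grade serous carcinoma of the ovary. One group grew for 48 h with 5% fetal bovine serum (FBS) in RPMI-1640, and the other was starved of serum for as long. Each group had 3 libraries, all from the same unmodified line, and the labels do not say whether they came from separate cultures. The p-values therefore measure the spread between these libraries, which may be technical. The series title relates the starved state to quiescence, a reversible exit from the cell cycle.

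SNAPC binds the proximal sequence element, a short motif upstream of snRNA genes, and it serves 2 RNA polymerases. At most spliceosomal snRNA genes it directs RNA polymerase II, and at the U6 gene and a few others it directs RNA polymerase III. SNAPC4 is the large subunit that contacts DNA through Myb-type repeats and holds the others together, SNAPC1 and SNAPC3 form the core with it, SNAPC2 binds SNAPC4, and SNAPC5 is a small subunit. POU2F1 (Oct-1) binds the octamer in the distal element of these promoters and helps SNAPC to bind. TBP is the TATA-binding protein used by all 3 nuclear polymerases. BRF2 joins TBP and BDP1 in the form of TFIIIB used at U6-type promoters, while BRF1 takes its place at tRNA and ribosomal RNA genes read by RNA polymerase III.

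Each library held between 16379416 and 19558484 counts assigned to genes. Levels are read counts relative to the TMM-scaled library total (CPM), and per-length comparisons use the FPKM values the authors deposited. Libraries of the same group differed in the levels of GC-rich relative to GC-poor transcripts. In the decile of genes with the lowest GC content, the median log2 deviation from the mean of the 6 libraries ran from -0.70 in serum-starved replicate 1 to 0.79 in FBS replicate 1. The members and lists are therefore given also with these trends in GC content and gene length removed from each library, called the correction below. The trend fitted for SNAPC1 from GC content and length was above 0 in every library with FBS and below 0 in every library without serum. The lowest GC decile itself did not separate the groups. Its median deviation was 0.29 in serum-starved replicate 3, against 0.012 and 0.062 in FBS replicates 2 and 3. A technical trend and an effect of serum on GC-poor transcripts cannot be told apart here. The correction may therefore also remove change due to serum. Of the 8 epithelial marker genes, 4 were at 5 CPM or more on average and none was at 0 in every library. The 4 were KRT7, KRT8, KRT18 and PAX8, while EPCAM averaged 2.71 CPM, WT1 1.95 CPM, CDH1 0.558 CPM and KRT19 0.0459 CPM (marker values relative to unscaled library totals). The 6 leukocyte markers together stayed between 1.98 and 3.79 CPM, the 6 endothelial markers between 4.86 and 9.08 CPM. The 6 fibroblast markers, of which COL1A2 and DCN were at 0 in every library, summed to 350 to 554 CPM with FBS and 675 to 885 CPM without serum, of which COL1A1 alone averaged 639.9 CPM. The part of these values in the results was not tested. In bulk RNA, fewer cells of a type and less RNA per cell cannot be told apart.

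The subunits differ widely in GC content, which is one of the properties the correction uses, so the middle 120 bases of 4 coding sequences are shown, with G and C in capitals. They were read from the GENCODE 29 transcripts (GRCh38), and the longest complete coding sequence was used for each gene. The stretch of SNAPC1 lies on the plus strand at chr14:61768699-61776172 across exons 4 and 5, and that of SNAPC3 on the plus strand at chr9:15444683-15447190, also across exons 4 and 5. That of SNAPC4 lies on the minus strand at chr9:136381876-136381995 in exon 17, and that of SNAPC2 on the plus strand at chr19:7922104-7922223 in exon 4.
SNAPC1: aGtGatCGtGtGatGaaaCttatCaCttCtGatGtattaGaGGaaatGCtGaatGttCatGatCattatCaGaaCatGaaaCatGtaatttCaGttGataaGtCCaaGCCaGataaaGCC
SNAPC3: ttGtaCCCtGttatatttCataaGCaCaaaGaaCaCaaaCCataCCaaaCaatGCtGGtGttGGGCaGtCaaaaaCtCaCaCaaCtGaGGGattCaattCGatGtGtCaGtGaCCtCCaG
SNAPC4: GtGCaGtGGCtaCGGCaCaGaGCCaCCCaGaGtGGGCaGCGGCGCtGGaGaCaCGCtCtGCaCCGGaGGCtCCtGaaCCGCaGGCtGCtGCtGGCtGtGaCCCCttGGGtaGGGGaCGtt
SNAPC2: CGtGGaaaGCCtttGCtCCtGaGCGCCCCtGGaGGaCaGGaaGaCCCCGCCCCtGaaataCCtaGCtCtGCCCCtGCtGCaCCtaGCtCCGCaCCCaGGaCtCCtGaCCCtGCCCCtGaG
The printed stretch of SNAPC1 is 35.0% G or C and that of SNAPC3 41.7%, against 67.5% for SNAPC4 and 65.0% for SNAPC2. Over the whole coding sequence the values are 39.7% for SNAPC1, 48.3% for SNAPC3, 63.6% for SNAPC4 and 66.1% for SNAPC2. Averaged over all transcripts of a gene, SNAPC1 has a GC content of 37.7%, at the 1.598 percentile of the 13772 genes tested, and SNAPC2 of 63.8%, at the 93.9 percentile. The subunits of this complex thus span nearly the whole range of GC content among the genes measured.

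SNAPC1, a core subunit of the complex (ENSG00000023608, chromosome 14, 61762357 to 61796428, GRCh38), was the gene whose fall chose this group. Its level was 35.5, 23.4 and 21.1 CPM in FBS replicates 1 to 3 and 5.98, 9.33 and 7.66 CPM in serum-starved replicates 1 to 3. Every library with FBS was above every library without serum, and FBS replicate 1 was the highest of all. The raw counts were 698, 393 and 324 with FBS and 88, 170 and 174 without serum. The means were 26.6 ± 7.73 and 7.66 ± 1.67 CPM (SD, n = 3), a log2 fold change of -1.80 (SE 0.35, 95% interval -2.54 to -1.06), or 3.47-fold lower. That value stood at the 0.653 percentile of all log2 fold changes, and its rank by p-value was 34 of 13772. It is the value by which SNAPC1 was picked (edgeR adjusted p = 0.0322). With a library left out, the edgeR adjusted p ran from 0.00704 without serum-starved replicate 3 to 0.436 without FBS replicate 1, and it passed in the former fit only. A gene annotated as a processed transcript, AL137129.1, covers 21.3% of the exonic bases of SNAPC1 on the same strand and had 0 counts in every library.

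**Figure D1:**
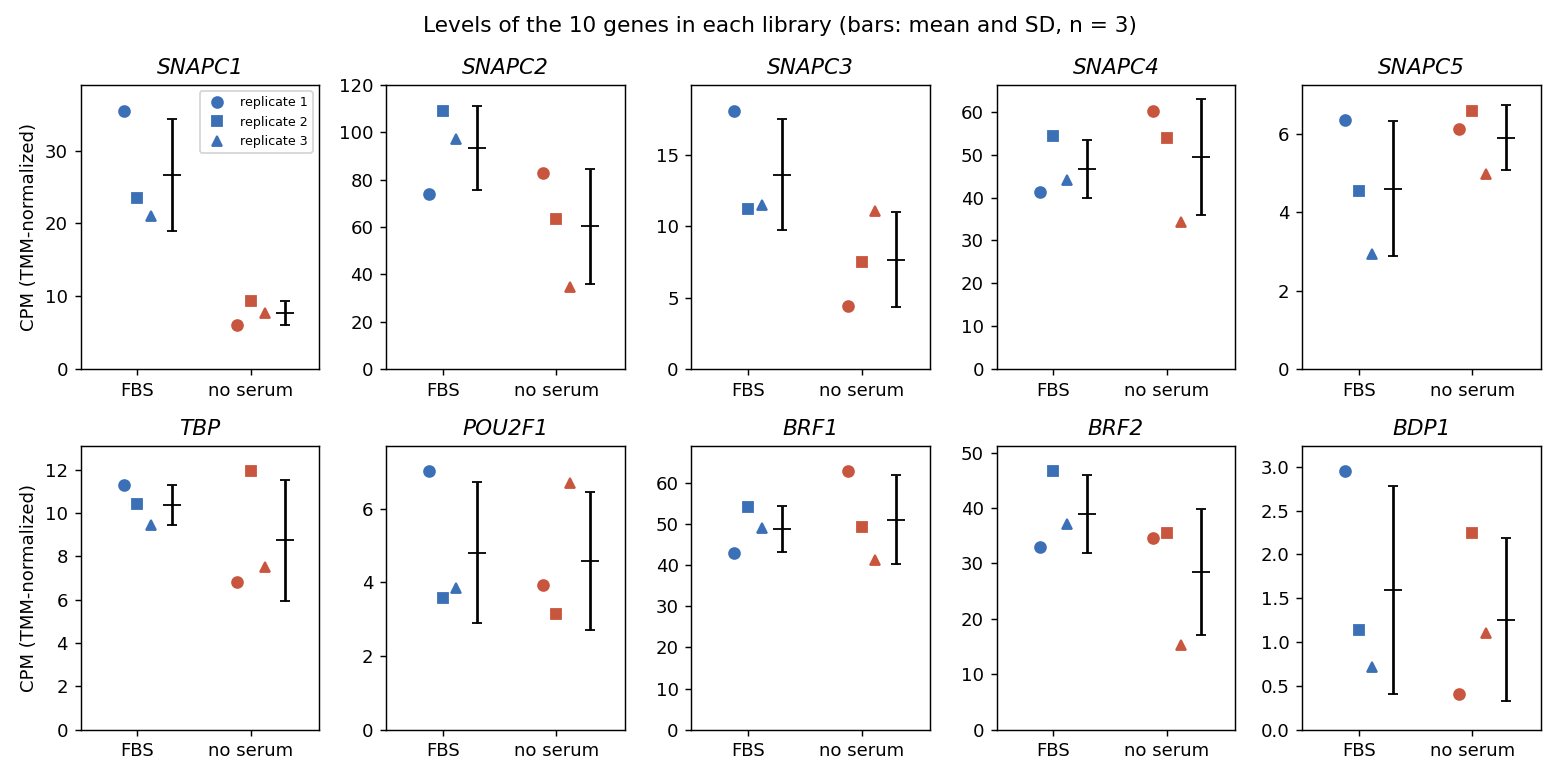
TMM-normalized CPM (vertical axes, each from 0) of the 10 genes in the 3 libraries with FBS (blue) and the 3 without serum (red), with symbols for the replicate number and bars for mean and SD. SNAPC1 runs from 21.1 to 35.5 CPM with FBS and from 5.98 to 9.33 CPM without serum, and SNAPC3 is the other gene whose groups do not overlap.

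The libraries with the most extreme SNAPC1 levels were also those with the strongest GC trend. Relative to its mean over the 6 libraries, SNAPC1 deviated by 1.33 (log2) in FBS replicate 1, and the trend fitted over all genes for a transcript of its GC content and length was 0.98 there. In serum-starved replicate 1 the deviation was -1.21 and the fitted trend -0.83. In the other 4 libraries the fitted trend was smaller, from 0.14 in FBS replicate 2 to -0.29 in serum-starved replicate 2, while SNAPC1 itself deviated by 0.74 and 0.58 in FBS replicates 2 and 3 and by -0.58 and -0.86 in serum-starved replicates 2 and 3. After the correction SNAPC1 was at 18.0, 21.2 and 19.8 CPM with FBS and at 10.6, 11.4 and 8.12 CPM without serum. The groups still did not overlap, and the spread within the FBS group dropped from an SD of 7.73 to 1.64 CPM. The corrected log2 fold change was -0.97 (SE 0.24), and it did not pass (edgeR adjusted p = 0.0729). It lay between -1.12 and -0.85 when each library was left out in turn, an alternative added after the data had been seen.

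**Figure D2:**
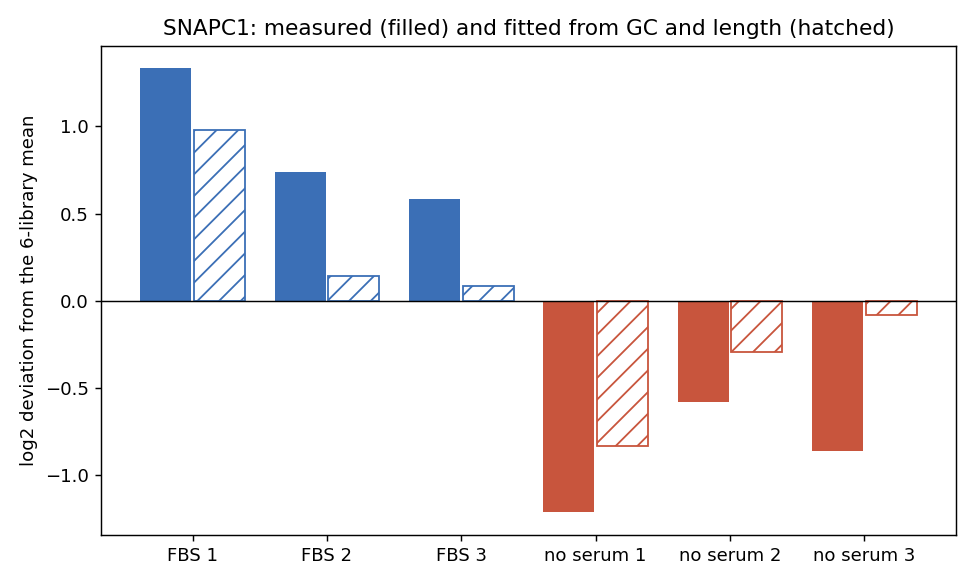
Log2 deviation of SNAPC1 from its mean over the 6 libraries (vertical axis) in each library, measured (filled bars) and as fitted from GC content and gene length over all genes (hatched bars), with FBS in blue and no serum in red. The measured values run from 1.33 in FBS replicate 1 to -1.21 in serum-starved replicate 1, and the fitted values in those 2 libraries are 0.98 and -0.83.

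None of the other 4 subunits passed the test. SNAPC3, the core subunit that shares DNA recognition with SNAPC4 (ENSG00000164975, chromosome 9, 15422704 to 15465953), was at 18.1, 11.2 and 11.5 CPM with FBS and at 4.42, 7.46 and 11.1 CPM without serum. Its groups did not overlap, but only just, since serum-starved replicate 3 reached 11.1 CPM against a lowest FBS value of 11.2 CPM. The log2 fold change was -0.83 (SE 0.40, 95% interval -1.68 to 0.02, edgeR adjusted p = 0.497). After the correction SNAPC3 was at 12.2 ± 0.901 CPM in FBS and 7.83 ± 0.820 CPM in the starved group (SD, n = 3), a log2 fold change of -0.63 (SE 0.26, edgeR adjusted p = 0.244). Of its exonic bases 2.09% overlap PSIP1, a protein-coding gene on the other strand.

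SNAPC2, which binds SNAPC4 (ENSG00000104976, chromosome 19, 7920316 to 7923250), was the most abundant member. It was at 74.0, 109 and 97.2 CPM with FBS and at 82.8, 63.4 and 34.7 CPM without serum, so serum-starved replicate 1 lay above FBS replicate 1. The log2 fold change was -0.63 (SE 0.33, 95% interval -1.32 to 0.06, edgeR adjusted p = 0.523). With the correction the libraries drew together, to 82.4, 93.5 and 93.2 CPM with FBS and 62.1, 57.0 and 56.3 CPM without serum. The groups then did not overlap, and the log2 fold change kept nearly the same size at -0.62 with a smaller SE of 0.18 (edgeR adjusted p = 0.12). Uncorrected, it moved from -0.36 without serum-starved replicate 3 to -0.92 without serum-starved replicate 1, and corrected it stayed between -0.69 and -0.59 as each library was left out.

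SNAPC4, the scaffold (ENSG00000165684, chromosome 9, 136375577 to 136400168), was at 41.4, 54.5 and 44.2 CPM with FBS and at 60.3, 54.0 and 34.4 CPM without serum. The groups overlapped fully, with a log2 fold change of 0.09 (95% interval -0.54 to 0.71, edgeR adjusted p = 0.948) that was -0.08 after the correction. SNAPC5, the small subunit (ENSG00000174446, chromosome 15, 66490135 to 66497813), was at 6.35, 4.53 and 2.92 CPM with FBS and at 6.12, 6.59 and 4.98 CPM without serum. Its log2 fold change was 0.35 (95% interval -0.56 to 1.26, edgeR adjusted p = 0.832), or 0.51 after the correction, and its level rested on 45 to 125 counts per library. Of its exonic bases 8.61% overlap MAP2K1 on the other strand, and 23.2% overlap AC116913.1, a gene annotated as antisense on the strand of SNAPC5. AC116913.1 had 13, 10 and 4 counts with FBS and 0, 3 and 0 without serum, and the part of either overlap in the SNAPC5 level was not tested. Whether counting used strand is not given in the sources used here, so reads there cannot be assigned to a strand.

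Ratios between subunits inside a library do not depend on the scaling between libraries. The FPKM of SNAPC1 was 1.63, 0.817 and 0.905 times that of SNAPC4 with FBS and 0.188, 0.328 and 0.423 times without serum. SNAPC1 and SNAPC4 were thus at similar levels per length with FBS, and SNAPC1 was the lower in every library without serum. After the correction the ratio of their CPM was 0.405 ± 0.0493 with FBS and 0.218 ± 0.0205 without serum (SD, n = 3). SNAPC1 chose the group, so these ratios are descriptions. The FPKM of SNAPC2 was 4.51, 5.06 and 5.55 times that of SNAPC4 with FBS and 3.46, 2.96 and 2.54 times without serum. Those groups did not overlap before or after the correction, and the exact permutation p, two-sided, was 0.1, the smallest that 3 libraries against 3 can give. That test cannot reach 0.05 here, and the pairs compared here and below are a selection, so no conclusion is drawn from it. The ratio of SNAPC1 to SNAPC3 in FPKM was 4.93 ± 0.327 with FBS and 2.77 ± 0.894 without serum. After the correction the groups overlapped, at 1.63 ± 0.236 and 1.30 ± 0.2996 times in CPM.

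**Figure D3:**
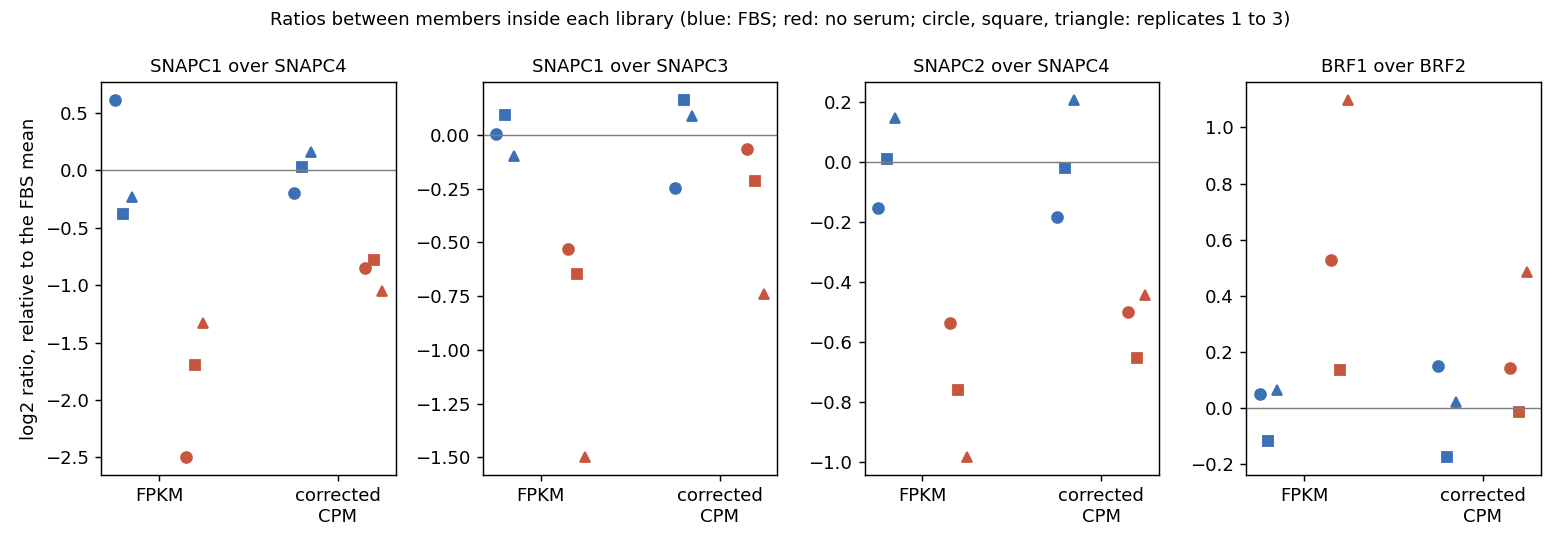
Log2 ratios between pairs of members in each library, relative to the geometric mean of the FBS libraries (vertical axis), from the deposited FPKM and from CPM corrected for GC content and length. The FPKM ratios are separated between groups in all 4 panels, and after the correction SNAPC1 over SNAPC3 and BRF1 over BRF2 overlap while the ratios to SNAPC4 do not.

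POU2F1, the octamer-binding activator of snRNA genes (ENSG00000143190, chromosome 1, 167220829 to 167427345), was low. It was at 7.01, 3.57 and 3.83 CPM with FBS and at 3.94, 3.13 and 6.69 CPM without serum, so the highest library of each group lay apart from the others. The log2 fold change was -0.07 (95% interval -1.04 to 0.91, edgeR adjusted p = 0.976), and -0.20 after the correction. TBP (ENSG00000112592, chromosome 6, 170554302 to 170572870) was at 11.3, 10.4 and 9.42 CPM with FBS and at 6.80, 11.9 and 7.49 CPM without serum. Serum-starved replicate 2 was the highest library of all 6 for TBP. Its log2 fold change was -0.25 (95% interval -1.03 to 0.54, edgeR adjusted p = 0.871) and -0.05 after the correction.

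Among the TFIIIB subunits, BRF1 had more CPM than BRF2 in each library, and BDP1 was the lowest member. CPM takes no account of gene length, and per length the order was the reverse. The FPKM of BRF1 was 0.244 to 0.565 times that of BRF2 over the libraries. BRF1 (ENSG00000185024, chromosome 14, 105209286 to 105315589) was at 43.0, 54.2 and 49.0 CPM with FBS and at 62.7, 49.2 and 41.2 CPM without serum, with a log2 fold change of 0.07 (95% interval -0.53 to 0.66, edgeR adjusted p = 0.959). After the correction it was 55.0 ± 2.21 CPM in FBS and 44.4 ± 2.86 CPM in the starved group (SD, n = 3). That turned the log2 fold change to -0.31 (SE 0.19, edgeR adjusted p = 0.44). Of the exonic bases of BRF1, 3.17% overlap PACS2 and 4.76% overlap BTBD6, both on the other strand. BRF2 (ENSG00000104221, chromosome 8, 37843268 to 37849904) was at 32.9, 46.6 and 37.1 CPM with FBS and at 34.5, 35.5 and 15.3 CPM without serum. Serum-starved replicate 3 lay far below the other 5 libraries. Its log2 fold change was -0.45 (95% interval -1.16 to 0.26, edgeR adjusted p = 0.7) and -0.50 after the correction (edgeR adjusted p = 0.289). Uncorrected, it was -0.15 without serum-starved replicate 3.

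The value of BRF2 is uncertain for a further reason. Of its exonic bases 59.0% overlap ADGRA2, a protein-coding gene on the other strand, which had 139, 220 and 224 counts with FBS and 357, 346 and 784 without serum. The library with the lowest BRF2 count, 347 in serum-starved replicate 3, was the one with the highest ADGRA2 count. How reads in the shared stretch were assigned is not given in the sources used here, and its part in the BRF2 level was not tested. The ratio of BRF1 to BRF2 in raw counts was 1.31, 1.16 and 1.32 with FBS and 1.82, 1.38 and 2.70 without serum, with no overlap (exact permutation p, two-sided, 0.1, the smallest possible). With the correction it was 1.598, 1.28 and 1.46 with FBS and 1.59, 1.43 and 2.02 without serum, and the groups overlapped (exact permutation p = 0.5).

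BDP1, the TFIIIB subunit shared by both BRF forms (ENSG00000145734, chromosome 5, 71455615 to 71567820), had 58, 19 and 11 counts with FBS and 6, 41 and 25 without serum. That is 2.95, 1.13 and 0.715 CPM and 0.408, 2.25 and 1.101 CPM, and the libraries of each group were as far apart as the groups. A count of 3, the limit that a count of 0 allows, corresponds to 0.132 to 0.204 CPM after TMM scaling. The 95% interval of its log2 fold change ran from -1.93 to 1.23 (estimate -0.35, edgeR adjusted p = 0.915; 0.14 after the correction), so a 2-fold change in either direction lay within the interval.

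**Figure D4:**
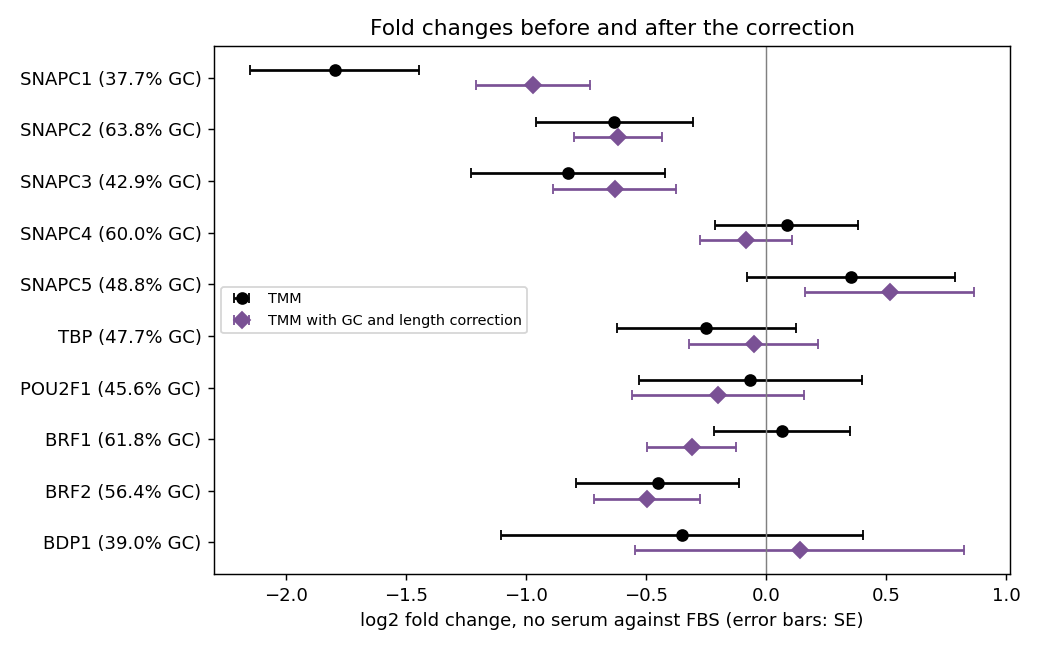
Log2 fold change without serum against FBS with its SE (horizontal axis) for the 10 genes, from edgeR with TMM scaling (circles) and with the GC and length correction (diamonds). SNAPC1 moves from -1.80 to -0.97, SNAPC2 stays at -0.63 and -0.62 with a shorter error bar, and SNAPC4, BRF1 and BDP1 change sign.

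Over the 10 genes, 1 passed at an adjusted p under 0.05, SNAPC1, which the choice fixed. Among all 13772 genes tested 0.283% passed (39 genes), 0.0436% lower and 0.240% higher without serum. With the correction none of the 10 passed, where 0.835% of all genes did, 0.203% lower and 0.632% higher. None of the 9 partners passed in edgeR, none had an unadjusted p under 0.05 (10.4% of all genes did), and none passed in DESeq2 or limma-voom. With the correction 3 of the 9 had an edgeR unadjusted p under 0.05, all lower without serum: SNAPC2 (0.00408), SNAPC3 (0.0272) and BRF2 (0.0414). Among all genes 7.49% did so on the lower side and 8.48% on the higher side. In CPM the groups did not overlap, with the lower values without serum, in 1 of the 9 partners, SNAPC3, against 7.65% of all genes (17.7% in either direction). After the correction this held for 4 of the 9 (SNAPC2, SNAPC3, BRF1 and BRF2), against 10.9% of all genes (22.0% in either direction), and none of the 9 lay higher without overlap. The median log2 fold change of the 9 was -0.25, and -0.20 after the correction, beside -0.02 and 0.01 over all genes.

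SNAPC1 was also the 1 member that passed with RLE scaling, without robust estimation and in limma-voom (each 0.276% of all genes), with a stricter filter (0.323%), without the filter (0.541%), in DESeq2 (1.23%) and with the replicate number as a block (0.312%). No member passed with library totals alone (0.182% of all genes), with the correction and the block (1.05%) or on log2 FPKM (0.190% with a pseudocount of 1 and 0.164% with 0.1, and 0% with a pseudocount of 1 and no filter). With a library left out, the shares of all genes were 0.0282%, 0.0976% and 0.139% without FBS replicates 1, 2 and 3, and 0.454%, 0.112% and 1.81% without serum-starved replicates 1, 2 and 3. SNAPC1 passed in the last of these only, and SNAPC2 to SNAPC5, TBP, POU2F1 and the TFIIIB genes passed in no fit that was run.

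Compared per length, SNAPC1 moved from the third to the sixth place in the order of the members. With FBS the mean FPKM was 45.6 for SNAPC2, 13.8 for BRF2, 9.76 for SNAPC1, 9.03 for SNAPC4, 4.36 for TBP, 3.61 for BRF1, 1.98 for SNAPC3, 1.78 for SNAPC5, 0.291 for POU2F1 and 0.125 for BDP1. BRF2 and SNAPC1, SNAPC1 and SNAPC4, TBP and BRF1, SNAPC3 and SNAPC5, and POU2F1 and BDP1 overlapped as neighbours in that order, while the other neighbours did not. Without serum SNAPC1 was at 2.81 FPKM, below SNAPC4 (9.58), BRF1 (3.78) and TBP (3.67) and its libraries overlapped with those of BRF1, TBP and SNAPC5 (2.29). BRF1 and TBP changed places and overlapped in both groups. SNAPC3 and SNAPC5 also changed places, and they overlapped with FBS but not without serum, where the lowest SNAPC5 library was at 1.93 FPKM and the highest SNAPC3 library at 1.61 FPKM. FPKM here divides by the summed exonic length of all transcripts of a gene, 16078 bases for POU2F1 and 2656 for SNAPC1, so genes with many long isoforms read low.

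The 5 protein-coding genes whose profile over the 6 libraries lay closest to that of SNAPC1 were ECT2, MZT1, HSPA13, HNRNPH3 and POLR3G. Closeness was the root mean square difference of log2 CPM after centring each gene, among 8873 genes at 5 CPM or more, and it was 0.189 for ECT2 and 0.229 for POLR3G against a median of 0.981. ECT2 encodes a protein that acts in cytokinesis, MZT1 a component of the gamma-tubulin complex, HSPA13 a chaperone of the Hsp70 family, HNRNPH3 an RNA-binding protein and POLR3G a subunit of RNA polymerase III. These genes were picked for their likeness to SNAPC1, so their falls follow from the choice and are descriptions. POLR3G gave 17.2, 7.69 and 9.55 CPM in the FBS libraries and 3.26, 3.95 and 3.70 CPM in the starved ones, a log2 fold change of -1.66, or -1.13 with the correction. The transcripts of these 5 genes had a GC content of 31.97 to 42.1%, all GC-poor like SNAPC1. With the correction HSPA13 ranked 1 of 8873, ECT2 39, HNRNPH3 250, POLR3G 301 and MZT1 1896. Among the partners SNAPC3 was the closest to SNAPC1, at a distance of 0.539 and a rank of 211, and SNAPC5 the farthest, at 1.11 and a rank of 6410.

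The wider pathway was read from 6 lists of 75 genes in all, of which 73 passed the filter on low counts, and none passed the test (0.283% of all genes did). At an unadjusted p under 0.05 there were 1 higher and 8 lower among the 73, against 6.01% higher and 4.37% lower over all genes. With the correction there were 4 higher and 7 lower, against 8.48% and 7.49% of all genes. DESeq2 called 1 (1.23% of all genes) and limma-voom none (0.276%). Of the 73, 53 had a log2 fold change below 0 (51.5% of all genes did). After the correction 39 did, against 6751 of all 13772 genes. Pooled, the 73 genes were low in GC content, with a median of 44.9% against 50.7% for all genes. The medians of the single lists ran from 42.5% to 51.7%, so not every list was low.

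Of the general factors and activators listed for snRNA promoters, 9 of 11 were tested, and the median log2 fold change was -0.59, or -0.21 after the correction. GTF2A2, the small subunit of TFIIA, had the lowest value among those at 5 CPM or more, with 43.5 ± 7.34 CPM in FBS and 16.9 ± 2.16 CPM in the starved group (both SD over 3 libraries). Its log2 fold change was -1.36 (edgeR adjusted p = 0.0676). After the correction it was -1.12 and passed (edgeR adjusted p = 0.0224), the 1 gene of the 73 that did, where 0.835% of all genes did, and DESeq2 also called it. Its large partner GTF2A1 had a log2 fold change of -1.06 (edgeR adjusted p = 0.376). SP1, a zinc finger activator, had the highest value of the list at that level, 0.57 (edgeR adjusted p = 0.631), which was -0.065 without serum-starved replicate 3. Below that level, at a mean of 4.54 CPM, ZNF143 was higher still. Its log2 fold change was 0.75 (edgeR adjusted p = 0.592), or 0.86 after the correction (edgeR adjusted p = 0.26).

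Elongation and 3′ processing of snRNAs depend on the little elongation complex and Integrator. None of the 6 genes listed with the former, COIL and USPL1 of Cajal bodies among them, passed in edgeR or had an unadjusted p under 0.05 (10.4% of all genes did). Their median was -0.14, and 0.12 after the correction. Their values ran from -0.18 for COIL, the marker protein of Cajal bodies, to 0.33 for ELL, among those at 5 CPM or more. Of 15 Integrator subunits none passed, and 1, INTS3, had an edgeR unadjusted p under 0.05, against the same 10.4% of all genes. INTS3 had means of 64.1 CPM in FBS and 128 CPM in the starved group, a log2 fold change of 0.99 (edgeR adjusted p = 0.273). INTS10 had the lowest value, -0.66 (edgeR adjusted p = 0.578), and the median of the list was 0.10.

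Among 11 factors and regulators of RNA polymerase III none passed (median -0.06). SSB, the La protein that binds the ends of new RNA polymerase III transcripts, had a log2 fold change of -1.05 (edgeR adjusted p = 0.357), and its transcripts have a GC content of 36.1%. With the correction its value was -0.28. GTF3C1, a DNA-binding subunit of TFIIIC, was at 0.37 (edgeR adjusted p = 0.703). MAF1, a repressor of RNA polymerase III, was the most abundant of the list with means of 847 CPM in FBS and 814 CPM in the starved group, and its log2 fold change was -0.06 (edgeR adjusted p = 0.972).

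Of 20 genes that assemble snRNAs into particles none passed, and 2 had an edgeR unadjusted p under 0.05 (10.4% of all genes did). The median of the list was -0.27, or -0.07 after the correction. SMN2 had the lowest value, -1.52 (edgeR adjusted p = 0.256), followed by SMN1 at -1.33. These are near-identical copies, and the split of reads between them is uncertain. CLNS1A, a chaperone of Sm proteins, had the highest value at 5 CPM or more, 0.35 (edgeR adjusted p = 0.747). Of 12 proteins of the mature particles none passed, although 11 were below 0 (51.5% of all genes were). On the lower side 6 did not overlap (7.65% of all genes did not). SNRPE, a protein of the Sm ring, had the lowest value, -0.80 (edgeR adjusted p = 0.412), and it was -0.10 after the correction. The list's median moved from -0.47 to -0.16, with 8 of the 12 below 0, against 6751 of all 13772 genes. On the lower side 4 then did not overlap, against 10.9% of all genes after the correction.

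**Figure D5:**
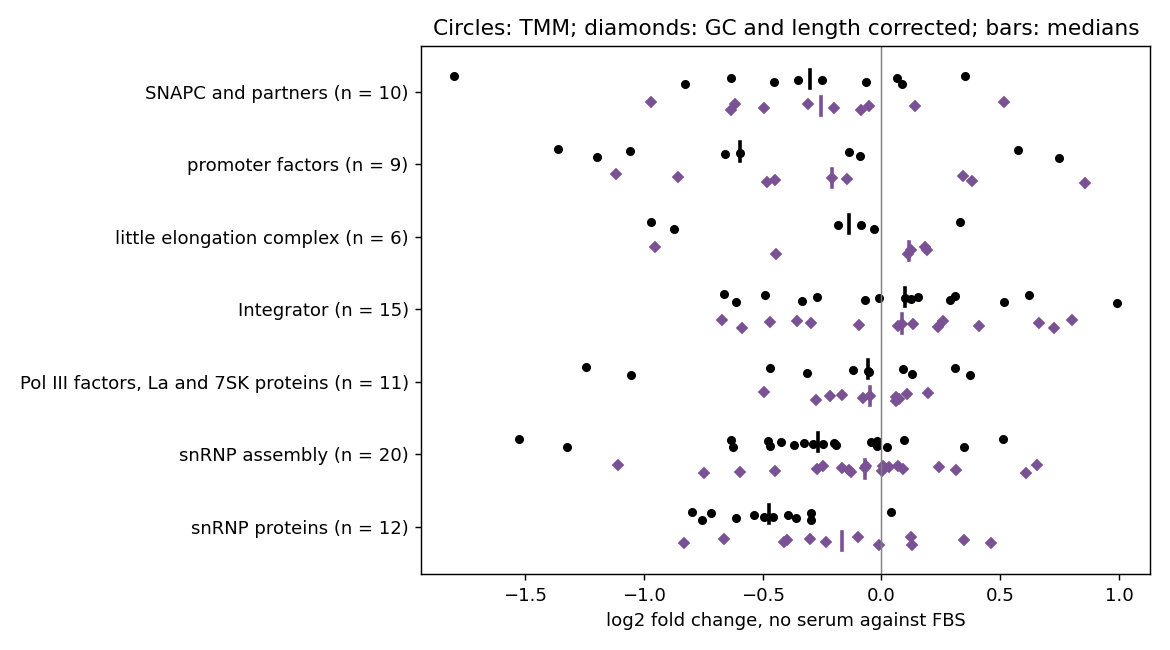
Log2 fold change without serum against FBS (horizontal axis) of every tested gene of SNAPC with its partners and of the 6 lists, with TMM scaling (circles) and with the GC and length correction (diamonds), and medians as bars. The snRNP proteins shift from a median of -0.47 to -0.16 with the correction, and SNAPC1 is the lowest of all circles at -1.80.

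The RNAs that this machinery makes were almost unmeasured. Of 35 symbols for snRNAs and other short RNAs of the same polymerases, 34 were matched to 35 genes, 63 to 333 bases long, and 28 of these had 0 counts in every library, among them RNU1-1, RNU2-1, RNU6-1 and RN7SK. The other 7 had 32 counts in all 6 libraries together, with at most 8 for a single gene, and no gene reached 10. All 1909 genes typed as snRNA in the table together had 100 to 180 counts per library, from 72 genes. A count of 0 allows a level of up to 0.132 to 0.204 CPM after TMM scaling, depending on the library, for counting error only. No level or change of the snRNAs themselves can be read from these libraries.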

How the data were processed

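RNA from 6 libraries of Ovcar8 cells, 3 with and 3 without serum, was compared; groups and replicate numbers come from the sample titles. The submitters' processing notes name DESeq2, GRCh38 and STAR 2.6.1 without saying what each was used for. Which tool counted the reads, and whether by strand, is not given in the sources used here. Per the file headers, the authors deposited raw counts per gene and FPKM values. All 58735 gene IDs, starts and ends matched GENCODE 29. The deposited FPKM carry a between-library scaling, since the read totals they imply differ from the library totals.

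Counts were tested with edgeR 4.0.16 in R 4.3.3 (filterByExpr with a minimum count of 10 and a minimum total of 15, which kept 13772 genes; TMM; glmQLFit with robust estimation; glmQLFTest), with Benjamini-Hochberg adjustment over all genes and a threshold of 0.05. The common dispersion was a biological coefficient of variation of 36.3%. Levels are mean ± SD of TMM-normalized CPM. Standard errors were derived from the estimate and the F statistic, and 95% intervals use the fit's degrees of freedom. The GC and length correction fitted each library's log2 deviation on splines with 5 degrees of freedom for mean transcript GC content and for log2 gene length, entered as offsets. The fit was tested on simulated data.

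The 10 genes, the lists and the alternatives were chosen with earlier results of these data known. Named genes were all 10 members, the highest and the lowest gene at 5 CPM or more of each list and any that passed, and the 5 genes with the profile closest to SNAPC1; small RNA genes with at least 10 counts would have been named. Other list genes were named after their values were seen. The alternatives were RLE scaling, library totals, DESeq2 1.42.0, limma-voom (limma 3.58.1), no filter, at least 10 counts and 1 CPM in 3 libraries as a stricter one, no robust estimation, a replicate block, the GC and length correction without and with the block, each library left out, and limma on log2(FPKM + 1) or log2(FPKM + 0.1) for genes averaging 0.5 FPKM or more, or on log2(FPKM + 1) without a filter. The correction with each library left out was added after seeing the data.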

Additional observations from a re-analysis of the deposited data

How the results depend on the processing

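SNAPC1 passed in 8 of 25 alternatives and was below 0 in all 25, from -1.97 to -0.85 (log2). The number of the 10 genes that passed was 1, always SNAPC1, or 0, in these alternatives. It was 0 with library totals alone, with the GC and length correction (also with the replicate block and in all 6 corrected fits that left out a library) and in the 3 FPKM fits. With a library left out it ranged from 0 to 1, and it was 1 only without serum-starved replicate 3. The other edgeR adjusted p were 0.436, 0.137 and 0.088 without FBS replicates 1, 2 and 3, and 0.0595 and 0.146 without serum-starved replicates 1 and 2. No partner passed in any alternative.

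Over all genes, 39 passed. The number was 25 with library totals alone, 127 without the filter, 160 in DESeq2, 115 with the GC and length correction, 145 with the correction and the replicate block, 22 and 19 on log2(FPKM + 1) and log2(FPKM + 0.1), 0 on log2(FPKM + 1) without a filter, and 4 to 257 with a library left out. Of the promoter factors, none passed as reported, and 1 passed (GTF2A2) without the filter, in DESeq2 and with the correction, alone or with the replicate block. With a library left out the promoter factors gave 0 to 2, Integrator 0 to 1 (INTS8) and the assembly genes 0 to 1 (SMN2), each upper value without serum-starved replicate 3. In that fit 257 of all 14179 genes tested passed (1.81%), so these counts are not read as results about the lists.

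Some values that had not passed changed sign. With the correction, and with the correction and the replicate block, the log2 fold change was -0.084 and -0.084 for SNAPC4, -0.31 and -0.31 for BRF1, 0.14 and 0.0012 for BDP1 and 0.12 and 0.10 for COIL. With a library left out it ranged from -0.067 to 0.29 for SNAPC4, from -0.45 to 0.31 for POU2F1, from -0.094 to 0.20 for BRF1, from -1.07 to 0.44 for BDP1, from -0.065 to 0.90 for SP1, from -0.53 to 0.11 for COIL and from -0.052 to 0.22 for SNRPD3. BRF2 stayed below 0, from -0.65 to -0.15, SNAPC3 from -1.19 to -0.54, and TBP from -0.54 to -0.088, while SNAPC5 stayed above 0, from 0.12 to 0.65. The cause was not tested.

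No pairing by replicate number was seen: the deviations correlated across genes at -0.26, 0.10 and -0.08 for numbers 1 to 3. Unmatched numbers gave -0.24 to 0.26. With 3 libraries per group and a GC trend in each library, these values cannot exclude a pairing. With the replicate block 43 genes passed, SNAPC1 among them (log2 fold change -1.78, edgeR adjusted p = 0.0375). BDP1 had the fewest counts of the members, 6 to 58 per library.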
